A study of Mus musculus with 6 samples.

Results

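The Sm proteins, the LSm proteins and the subunits of RNA polymerases I, II and III are the protein parts of machines that transcribe, splice and degrade RNA. Their genes were taken by symbol, as every gene named in the authors' table of both groups that begins with Snrp, with Lsm and a digit, or with Polr1, Polr2 or Polr3 and a letter from a to m. Of 26211 named genes, 51 chosen in this way are described here. They comprise 12 Snrp genes, 12 Lsm genes and 27 Polr genes, the last split into 5 of RNA polymerase I (Pol I), 13 of Pol II and 9 of Pol III by symbol. All 51 had a value in all 6 libraries, and 50 had a mean of at least 1 FPKM (fragments scaled to the length of the transcript and to the mapped fragments of the library), the level from which 10349 genes were tested. The gene below it was Snrpn, the tissue-restricted relative of Snrpb.

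The libraries come from follicular helper T (Tfh) cells, CD4+ T cells that help B cells in germinal centers, and address which transcripts depend on Bob1 in these cells. All mice carried FoxP3GFP/DTR, which marks FoxP3+ regulatory cells with GFP, and floxed alleles of Pou2af1, the gene for Bob1. The 3 Bob1KO libraries are from FoxP3GFP/DTR CD4Cre/+Bob1fl/fl mice, in which Cre under the Cd4 promoter deletes the whole gene in cells that have expressed Cd4, CD8+ T cells included. The 3 WT libraries are from FoxP3GFP/DTR CD4+/+Bob1fl/fl mice, so the controls carry the floxed alleles and no Cre. Mice of 6 to 12 weeks, littermates matched for sex, received 100 µg of NP-CGG in complete Freund's adjuvant, and spleen cells positive for CD3, CD4, CXCR5 and PD-1 and negative for B220 and GFP were sorted on day 7, which leaves out FoxP3+ follicular regulatory cells. Each library came from an experiment with several mice, and was made from 0.7 ng of RNA. Values measure RNA of the sorted cells in bulk, in which fewer cells of a type and less RNA per cell cannot be told apart.

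As background, Sm proteins form a ring around a short uridine-rich site of the spliceosomal U1, U2, U4 and U5 small nuclear RNAs, and the survival of motor neuron (SMN) complex loads that ring in the cytoplasm. LSm proteins form related rings. One binds the end of U6 RNA in the nucleus, and another, which contains Lsm1, joins the cytoplasmic decapping machinery. Pol I transcribes ribosomal RNA, Pol II messenger RNA and most small nuclear RNAs, and Pol III transfer RNA, 5S ribosomal RNA and U6 RNA. Each polymerase has its own pair of large catalytic subunits, and several small subunits are common to them. T cells that divide after activation make more ribosomes and more splicing machinery. Whether the RNA of these genes follows biosynthetic activity in Tfh cells was not tested.

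Bob1 itself has no strong DNA binding of its own and acts with Oct1 or Oct2 on the octamer ATGCAAAT. RefSeq promoters of GRCm38.p6, from 250 bases before to 50 after the start, were given for 41 of the 51 genes, with 49 starts in all. The octamer was in 0 of these 49 promoters on either strand, against 1.74% of all 32851 promoters. At so low a share, 0 among 49 is not unusual and does not set these genes apart. The ETS motif CCGGAAGT was in 7 of 49 (14.3%, against 3.89% of all), the E-box CACGTG in 6, of 5 genes (12.2%, against 7.15%) and TATAAA in 4 (8.16%, against 13.6%). No motif overlaps another by its letters, and both strands were searched. The median GC content was 59.3% for these promoters and 52.7% for all promoters, and the shares of motifs were not adjusted for it. A match is a description of letters and shows no bound factor. The 100 bases before the start of 5 genes are printed because they hold these motifs close to the start. They lie at chr15:79141225-79141324 (plus strand), chr5:136116591-136116690 (plus strand), chr10:84622198-84622297 (plus strand), chr11:69758634-69758733 (minus strand) and chr7:27196272-27196371 (minus strand), in that order. Capitals mark the ETS motif in Polr2f, Polr2j and Polr3b, TATAAA in Polr2a and both E-boxes in Snrpa.
Polr2f: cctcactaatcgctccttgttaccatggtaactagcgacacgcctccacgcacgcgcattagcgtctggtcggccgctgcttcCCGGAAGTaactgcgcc
Polr2j: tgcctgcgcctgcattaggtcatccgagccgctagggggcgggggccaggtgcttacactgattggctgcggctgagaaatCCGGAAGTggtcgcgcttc
Polr3b: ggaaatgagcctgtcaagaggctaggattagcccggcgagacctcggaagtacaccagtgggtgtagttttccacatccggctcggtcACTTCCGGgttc
Polr2a: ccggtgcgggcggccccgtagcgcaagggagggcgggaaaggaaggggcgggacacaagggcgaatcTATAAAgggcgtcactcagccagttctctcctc
Snrpa: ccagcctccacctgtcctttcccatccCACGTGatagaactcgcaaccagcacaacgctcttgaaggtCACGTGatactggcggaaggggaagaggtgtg
The ETS motif begins 17, 19 and 12 bases before the start of Polr2f, Polr2j and Polr3b, and TATAAA begins 33 bases before that of Polr2a.

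In the whole series the labels held for the targeted gene. Pou2af1 was at 46.1, 32.5 and 34.4 FPKM in the WT libraries and at 1.16, 0.237 and 0.317 in the Bob1KO libraries (log2 fold change -4.65, SE 0.256, limma adjusted P = 0.00339). All 8 Tfh markers were present, with summed levels of 1994 to 2821 FPKM in WT and 2102 to 2801 in Bob1KO. Of 11 myeloid markers 9 had a value, with sums of 545 to 1050 FPKM in WT and 84.1 to 4809 in Bob1KO, where replicate 2 is the lowest and replicate 1 the highest. Of 8 B cell markers 6 had a value, with sums of 23.0 to 39.1 and 27.2 to 52.4, and Pax5 was listed at 0 in 3 libraries. Of 7 plasma cell markers 5 had a value (78.2 to 105 and 95.7 to 128), and of 9 erythroid markers 6 (2.88 to 14.0 and 6.83 to 17.0). The 10 NK and CD8 T cell markers summed to 300 to 421 in WT and 160 to 247 in Bob1KO. Ccl5 alone was at 275, 159 and 99.9 in WT and 59.6, 85.6 and 22.9 in Bob1KO, a large part of the WT sums. Of the 7 markers of this list that were tested, 5 were negative and 2 positive, with a median log2 fold change of -0.17. The total FPKM of a library was 507050, 516543 and 546933 in WT and 538396, 500125 and 491172 in Bob1KO.

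None of the 50 tested genes passed the adjusted P of 0.05 in either direction (limma with Benjamini-Hochberg adjustment over all 10349 genes), and the lowest adjusted P of any of them was 0.937. Over all genes 0.00966% passed upwards, which is Pcsk1, and 0.00966% downwards, which is Pou2af1. With the replicate number as a block, 1 gene passed in all, and the lowest adjusted P of the 50 was 0.742. At an unadjusted P below 0.05, 0 of the 50 genes were higher in Bob1KO, against 3.20% of all tested genes, and 0 were lower, against 2.13%. With the block, Polr1e was higher at such a P (limma adjusted P = 0.742) and Snrpa1 lower (limma adjusted P = 0.792), 1 of the 50 genes in each direction (2%), against 3.90% higher and 2.34% lower over all genes in that fit. These counts changed with the libraries. Without Bob1KO replicate 1, 9 of the 50 genes (18%) were lower at an unadjusted P below 0.05, against 2.64% of all genes, and the lowest limma adjusted P was 0.88. They were Lsm2, Lsm4, Polr2f, Polr2g, Polr2j, Polr2k, Polr2l, Snrpc and Snrpf. For Polr2l, the rows of Bob1KO replicates 2 and 3 carry the gene name and those of WT replicates 2 and 3 are assembled. Its value moved with the kind of row, as described below. Without WT replicate 1, 3 genes were lower (6%, against 2.48%), and without WT replicate 2, 1 was higher (against 2.36%) and 1 lower (against 2.58%). All 3 Bob1KO libraries lay above all 3 WT libraries for 3 of the 50 genes (6%), against 5.85% of all genes, and below them for 1 (2%), against 4.83%. The last pair of shares lies near or below those of all genes.

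**Figure D1:**
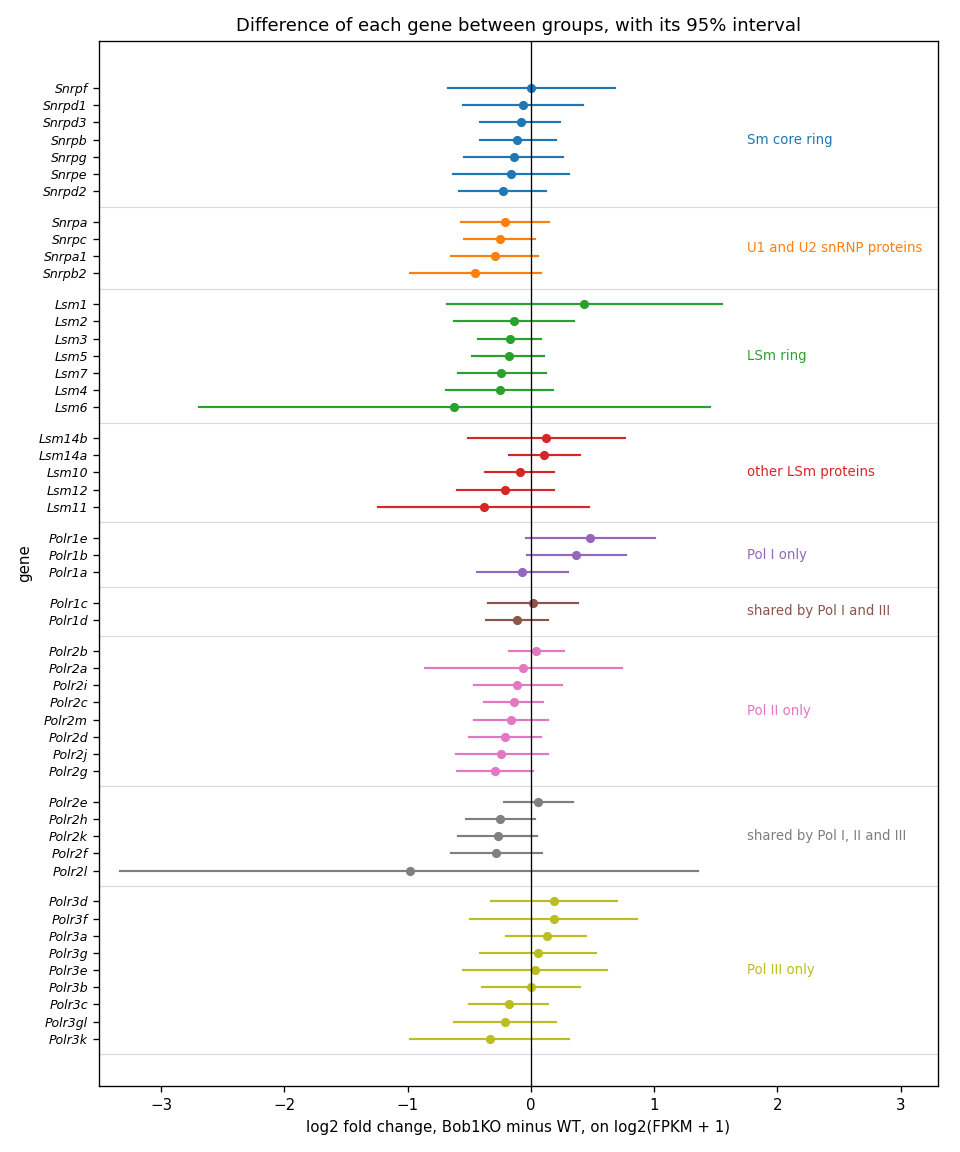
Log2 fold change of 50 genes, Bob1KO minus WT on the log2(FPKM + 1) scale, with the 95% interval from limma, ordered within their roles. All 50 intervals, from the fit without the replicate block, include 0, and the widest belong to Polr2l and Lsm6.

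The differences were small and leaned to lower values in Bob1KO. The log2 fold change was negative for 35 of the 50 genes and positive for 15, with a median of -0.14 on the log2(FPKM + 1) scale, beside 5248 negative and 5101 positive values and a median of 0.00 over all tested genes. By class, the median was -0.16 for the 11 tested Snrp genes, of which 10 were negative, -0.18 for the 12 Lsm genes, of which 9 were negative, and -0.11 for the 27 Polr genes, of which 16 were negative. The polymerases did not share one value. Split by symbol, the median was -0.21 for the 13 Pol II genes (11 negative), 0.02 for the 5 Pol I genes (2 negative) and 0.03 for the 9 Pol III genes (3 negative). The Pol II symbols include 5 subunits shared by all 3 polymerases (median -0.27), and the Pol I symbols 2 shared with Pol III (median -0.04). Without the shared subunits the medians were -0.15 for 8 Pol II genes and 0.37 for 3 Pol I genes. Of the medians by symbol, only that of Pol II kept its sign over left-out libraries, at -0.28 to -0.13. The Pol I median ran from -0.094 without WT replicate 2 to 0.16 without WT replicate 3, and the Pol III median was -0.031 without WT replicate 3, -0.046 without Bob1KO replicate 3 and -0.020 with quantile normalization. These are descriptions, and the difference between the polymerases was not tested. For the 46 genes whose libraries lay within a 3-fold range, the 95% interval reached 0.36 on either side of the log2 fold change in the median, and most differences were smaller than that.

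Snrpb and Snrpg, of the Sm core, were the most abundant genes of the set. Snrpb, which encodes SmB, was at 327, 312 and 376 FPKM in WT and at 313, 283 and 346 in Bob1KO. Its groups overlapped, with means of 338 ± 33.7 and 314 ± 31.7 (SD, n = 3 each) and a log2 fold change of -0.11 (95% interval -0.41 to 0.20, limma adjusted P = 0.958). Snrpg, for SmG, followed at 297, 335 and 304 in WT and 344, 291 and 224 in Bob1KO. Here Bob1KO replicate 1 was the highest library and replicate 3 the lowest (log2 fold change -0.14, limma adjusted P = 0.958). Snrpe, for SmE, was at 141, 169 and 218 in WT and at 189, 147 and 134 in Bob1KO (log2 fold change -0.16, limma adjusted P = 0.958). Bob1KO replicate 3 alone lay below the WT range. The D proteins gave -0.06 for Snrpd1, -0.23 for Snrpd2 and -0.08 for Snrpd3, with means over the WT libraries of 48.4, 134 and 152 FPKM. Snrpf, for SmF, had the only positive value of the class, at 0.00, and was at 70.0, 76.3 and 80.0 in WT and 124, 64.2 and 54.1 in Bob1KO, so replicate 1 was the highest of all libraries and the other Bob1KO libraries the lowest. Without Bob1KO replicate 1 its log2 fold change was -0.35. The authors' group values from a common assembly were lower in Bob1KO, at 90.9 for WT and 76.5 for Bob1KO. Snrpn, for SmN, which replaces SmB in neurons, was near the floor at 0.473, 0.594 and 0.170 in WT and 0.467, 0.261 and 0.480 in Bob1KO.

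The 4 genes for proteins particular to the U1 and U2 particles were all lower in mean, with a median log2 fold change of -0.27. Snrpb2, for a U2 protein, had the lowest value of the class at 30.9, 45.8 and 56.1 FPKM in WT and 35.8, 31.5 and 26.8 in Bob1KO. WT replicate 1 lay among the Bob1KO libraries (log2 fold change -0.45, 95% interval -0.98 to 0.08, limma adjusted P = 0.943). Its paralog Snrpa, which encodes the U1 protein A, was at 84.9, 64.8 and 73.1 in WT and 72.5, 54.4 and 65.5 in Bob1KO (log2 fold change -0.21, limma adjusted P = 0.945). Snrpa1, for the U2 protein A', gave -0.29 and Snrpc, for the U1 protein C, gave -0.25. Snrpc was at 122, 140 and 147 in WT and 126, 106 and 111 in Bob1KO, with an overlap by 1 library in each group.

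**Figure D2:**
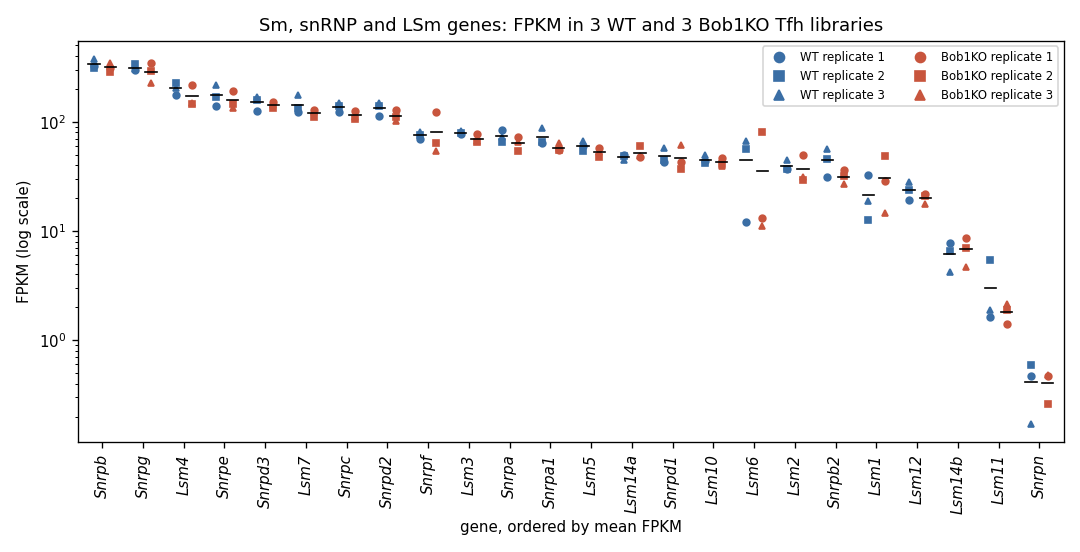
FPKM of the 24 Snrp and Lsm genes on a log axis, ordered by mean level, with 1 symbol per library (blue WT, red Bob1KO, shape for the replicate number) and a bar at the mean of each group. Snrpb and Snrpg are the highest, Snrpn the lowest, and Lsm6, Lsm1 and Lsm11 show the widest spread between libraries.

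Among the LSm rings, Lsm4, Lsm7 and Lsm3 were the most abundant. Lsm4, a subunit of both rings, was at 174, 226 and 206 FPKM in WT and 218, 146 and 149 in Bob1KO, where replicate 1 stood with the WT libraries (log2 fold change -0.25, 95% interval -0.69 to 0.18, limma adjusted P = 0.945). Lsm7 was at 123, 133 and 174 in WT and 128, 111 and 123 in Bob1KO (log2 fold change -0.24, limma adjusted P = 0.945). Lsm3 was at 76.7, 78.4 and 82.3 in WT and 77.9, 65.3 and 67.3 in Bob1KO, again with Bob1KO replicate 1 inside the WT range (log2 fold change -0.17, limma adjusted P = 0.945). Lsm2 and Lsm5 gave -0.14 and -0.18. None of these ring genes passed the test. The values of Lsm1 and Lsm6 are given with the assembly below.

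The other LSm genes have different roles. Lsm10 and Lsm11 belong to the U7 particle that processes histone messenger RNA, and gave -0.09 and -0.38. Lsm12 gave -0.21. Lsm14a and Lsm14b encode related proteins of P bodies, where untranslated messenger RNA gathers, and both had positive values. Lsm14a was at 49.1, 48.4 and 45.0 FPKM in WT and 47.2, 59.4 and 48.4 in Bob1KO, and Lsm14b at 7.69, 6.52 and 4.23 in WT and 8.69, 7.03 and 4.68 in Bob1KO. The log2 fold changes of 0.11 and 0.12 did not pass the test (limma adjusted P = 0.954 and 0.975). On the FPKM scale, which is per length, Lsm14a exceeded Lsm14b 5.43 to 10.6 times in the 6 libraries, with overlapping groups.

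Most of the large catalytic subunits differed little between libraries. Polr2b, the second largest subunit of Pol II, was at 28.7, 28.4 and 28.7 FPKM in WT and 29.3, 29.7 and 29.8 in Bob1KO. Although the groups did not overlap, the log2 fold change was 0.04 (95% interval -0.18 to 0.27, limma adjusted P = 0.975), and its ratio of highest to lowest library was 1.05. Polr3a, the largest of Pol III, was at 6.37, 5.60 and 6.70 in WT and 6.78, 7.00 and 6.82 in Bob1KO, also with no overlap (log2 fold change 0.13, limma adjusted P = 0.955). Its partner Polr3b was at 8.66, 8.23 and 6.53 in WT and 8.19, 6.56 and 8.69 in Bob1KO (log2 fold change 0.00, 95% interval -0.40 to 0.40). Polr1a, the largest of Pol I, was at 8.03, 7.11 and 8.99 in WT and 8.04, 6.54 and 8.30 in Bob1KO (log2 fold change -0.07, limma adjusted P = 0.975). Polr1b, its partner, was at 6.46, 6.39 and 9.34 in WT and 9.99, 9.46 and 9.66 in Bob1KO. All Bob1KO libraries lay above WT replicate 3, which stood close to them (log2 fold change 0.37, SE 0.170, limma adjusted P = 0.937). The ratio of Polr1a to Polr1b was 1.24, 1.11 and 0.963 in WT and 0.805, 0.691 and 0.859 in Bob1KO. It is built on the Polr1b values just given, so it is not an independent result, and no ratio was tested. For the other catalytic pairs the groups overlapped. Polr2a to Polr2b was at 0.407 to 0.839 in WT and 0.406 to 0.85 in Bob1KO, and Polr3a to Polr3b at 0.68 to 1.03 and 0.784 to 1.07. Polr2a, the largest subunit of Pol II, was at 11.7, 23.9 and 15.7 in WT and 12.5, 25.2 and 12.1 in Bob1KO, with both libraries numbered 2 the highest (log2 fold change -0.06, limma adjusted P = 0.994). Its group values from the authors had the opposite direction, at 12.9 for WT and 14.9 for Bob1KO.

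The remaining subunits of Pol I differed in sign. Polr1e, a subunit found in Pol I alone, had the highest log2 fold change of all 50 genes at 0.48 (SE 0.222, 95% interval -0.04 to 1.01, limma adjusted P = 0.937). It was at 7.96, 14.7 and 10.1 FPKM in WT and 14.6, 17.6 and 13.6 in Bob1KO, so WT replicate 2 lay inside the Bob1KO range. The authors' group values from a common assembly had the opposite direction, at 17.9 for WT and 16.7 for Bob1KO. Polr1c and Polr1d, which Pol I shares with Pol III, gave 0.02 and -0.11. Polr1d was the most abundant polymerase gene at 170, 172 and 165 in WT and 172, 155 and 145 in Bob1KO. Polr1c was at 26.2, 21.6 and 32.3 in WT and 27.5, 26.3 and 26.4 in Bob1KO, and its Bob1KO libraries lay within the WT range.

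Of the 8 genes that belong to Pol II alone, 7 were negative. Polr2g, which with Polr2d forms the stalk of Pol II, was at 125, 106 and 132 FPKM in WT and 111, 93.7 and 91.7 in Bob1KO. Only Bob1KO replicate 1 exceeded a WT library (log2 fold change -0.29, SE 0.132, 95% interval -0.60 to 0.02, limma adjusted P = 0.937). Polr2d gave -0.21. Polr2c and Polr2j, which form the assembly platform, gave -0.14 and -0.24, and Polr2i gave -0.11. Polr2j was at 93.9, 101 and 101 in WT and 106, 71.7 and 76.6 in Bob1KO, where replicate 1 was the highest of all libraries. Polr2m, which encodes a protein that associates with Pol II and was the most abundant Pol II gene of this set, was at 138, 119 and 152 in WT and 119, 113 and 132 in Bob1KO (log2 fold change -0.16, limma adjusted P = 0.945).

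Of the 5 subunits that all 3 polymerases share, 4 had negative values. Polr2h was the only gene of the 50 with all Bob1KO libraries below all WT libraries, at 31.6, 34.2 and 31.2 FPKM in WT and 28.4, 23.9 and 29.0 in Bob1KO (log2 fold change -0.25, SE 0.119, limma adjusted P = 0.942). Polr2f and Polr2k gave -0.28 and -0.27, and in both Bob1KO replicate 1 lay inside the WT range while replicates 2 and 3 lay below it. Polr2f was at 84.1, 97.6 and 101 in WT and 95.7, 68.2 and 70.5 in Bob1KO. Polr2e, the most abundant of the shared subunits, had the opposite sign, at 119, 118 and 136 in WT and 143, 118 and 129 in Bob1KO (log2 fold change 0.06, 95% interval -0.22 to 0.34).

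**Figure D3:**
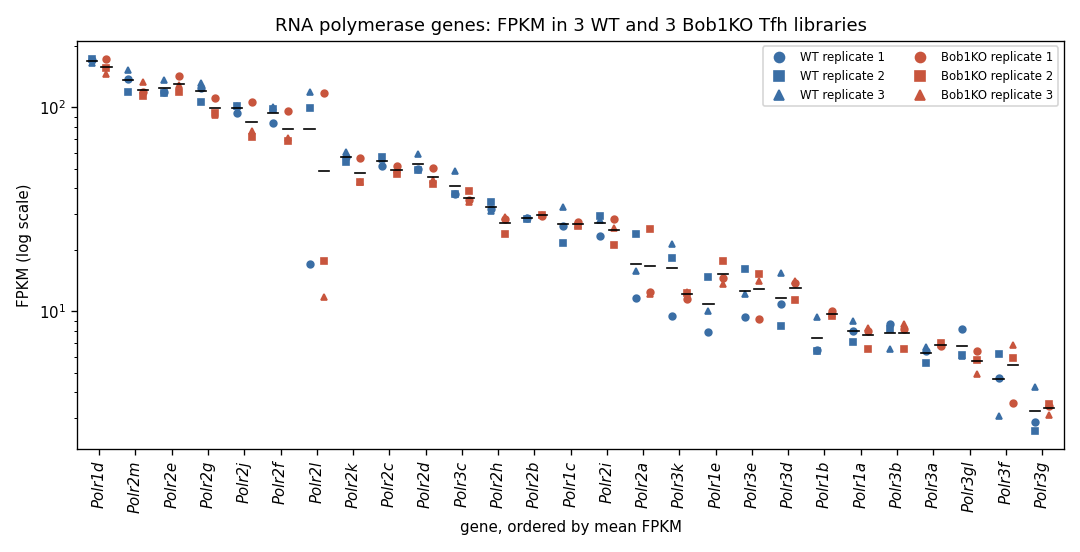
FPKM of the 27 polymerase genes on a log axis, ordered by mean level, with 1 symbol per library (blue WT, red Bob1KO, shape for the replicate number) and a bar at the mean of each group. Polr1d, Polr2m and Polr2e lead the order, most Pol III genes are at its low end, and Polr2l splits into 3 high and 3 low libraries.

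By symbol, the median level was 52.4 FPKM for the Pol II genes and 13.1 for the Pol I genes. It was 8.55 for the 3 genes of Pol I alone. Pol III genes were the least abundant polymerase genes, with a median level of 7.81, close to that of Pol I alone. Polr3c, part of a trimer that serves initiation, was the highest at 37.6, 37.4 and 48.7 in WT and 35.3, 38.8 and 34.2 in Bob1KO (log2 fold change -0.18, limma adjusted P = 0.945). Polr3k gave -0.33, with 9.48, 18.2 and 21.4 in WT against 11.5, 12.3 and 12.5 in Bob1KO, so its WT replicate 1 was the lowest library of all. Polr3e gave 0.03, with 9.34, 16.1 and 12.2 in WT and 9.16, 15.2 and 14.1 in Bob1KO. Its group values from the authors had the opposite direction, at 12.7 for WT and 11.2 for Bob1KO. Polr3d had the highest value of the class at 0.19, with 10.8, 8.50 and 15.4 in WT and 13.7, 11.4 and 14.0 in Bob1KO (95% interval -0.32 to 0.70), and Polr3f gave 0.19. Polr3g and Polr3gl encode alternative forms of 1 subunit of the trimer, of which Polr3g is known from stem and tumor cells. Polr3g was at 2.86, 2.60 and 4.26 in WT and 3.42, 3.53 and 3.12 in Bob1KO, and Polr3gl at 8.20, 6.11 and 6.02 in WT and 6.40, 5.74 and 4.94 in Bob1KO. The log2 fold changes were 0.06 and -0.21, and Polr3gl was the higher form in all 6 libraries, with a ratio of Polr3g to Polr3gl of 0.349 to 0.707 in WT and 0.534 to 0.632 in Bob1KO.

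For 4 genes the value differed strongly between libraries of the same group. Their highest library was over 3 times the lowest (8% of the 50), while over all 10349 tested genes this, or a library listed at 0, held for 1344 (13%). Transcripts were assembled anew in each library, so a gene stands either in a row with its own name or in a row with an assembly number. Polr2l, a small subunit shared by all polymerases, was at 17.1, 17.6 and 11.8 FPKM in WT replicate 1 and Bob1KO replicates 2 and 3, where its row carries the gene name. It was at 99.1, 119 and 117 in WT replicates 2 and 3 and Bob1KO replicate 1, where the row is an assembled one. On mm10 the named row spans chr7:141471860-141475153, and the assembled rows begin at the same base and end at 141475343, 141475322 and 141475329, beyond the annotated start of this gene on the minus strand. The value moved with the kind of row, and the log2 fold change of -0.98 has an interval of -3.33 to 1.36 (limma adjusted P = 0.951). The authors' own group values from a common assembly were 23.2 for WT and 19.6 for Bob1KO. Lsm6, a subunit of both LSm rings, was at 12.2, 56.1 and 66.6 in WT and 13.2, 81.4 and 11.05 in Bob1KO, all in assembled rows of the same span, chr8:78804868-78821152 (log2 fold change -0.62, 95% interval -2.69 to 1.45), beside authors' values of 16.5 and 13.9. Lsm1, which marks the cytoplasmic ring, was at 32.8, 12.5 and 19.0 in WT and 28.5, 48.2 and 14.5 in Bob1KO (log2 fold change 0.43, 95% interval -0.68 to 1.55), while the authors' values were lower in Bob1KO, at 37.3 for WT and 32.5 for Bob1KO. With both libraries numbered 2 left out the log2 fold change was -0.28. Lsm11 was at 5.46 in WT replicate 2 and at 1.41 to 2.16 in the other 5 libraries, beside authors' values of 6.95 for WT and 6.51 for Bob1KO. The part of the assembly in the values of these 4 genes was not tested. Without them, the medians were -0.16 for the 11 Snrp genes, -0.17 for 9 Lsm genes and -0.09 for 26 Polr genes, with -0.18 for 12 Pol II genes.

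**Figure D4:**
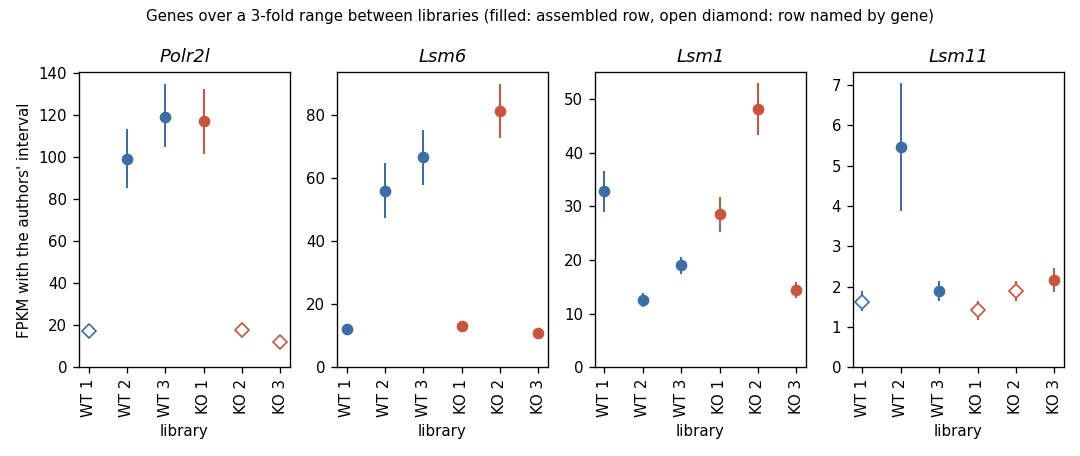
FPKM of Polr2l, Lsm6, Lsm1 and Lsm11 in each library (WT blue, Bob1KO red, named KO on the axis), with the interval that the authors' files give; filled circles are assembled rows and open diamonds rows named by gene. Polr2l is at 11.8 to 17.6 in named rows and at 99.1 to 119 in assembled ones.

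The lean to lower values was uneven over the libraries. The median deviation of the 50 genes from their own means, on the log2(FPKM + 1) scale, was -0.03, 0.05 and 0.18 in the WT libraries and 0.05, -0.14 and -0.11 in the Bob1KO libraries. Bob1KO replicate 1 thus stood with WT replicate 2 and above WT replicate 1, and the groups overlapped. For the Snrp genes the deviations were -0.11, 0.05 and 0.24 in WT and 0.06, -0.21 and -0.16 in Bob1KO. Of the 50 genes, 32 (64%) had their lowest library in Bob1KO replicate 2 or 3, against 35.3% of all tested genes, and 24 (48%) their highest in WT replicate 3, against 26.9%. These shares use the same libraries as the contrast and have no test. Without Bob1KO replicate 1 the median of the Snrp genes was -0.30, and without Bob1KO replicate 2 it was -0.12. The median of the Lsm genes was -0.25 without Bob1KO replicate 1, and -0.09 without WT replicate 3.

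Other values also differed between these libraries. The total FPKM was highest in WT replicate 3 and lowest in Bob1KO replicates 3 and 2. Setting these totals equal, an alternative chosen after the values were seen, gave medians of -0.12, -0.14 and -0.07 for the Snrp, Lsm and Polr genes, beside 0.03 over all genes. The 24 proliferation genes summed to 549, 553 and 699 FPKM in WT and 505, 431 and 549 in Bob1KO. Like the median deviation of the 50 genes, these sums were highest in WT replicate 3 and lowest in Bob1KO replicate 2. Unlike that median, they were lower in Bob1KO replicate 1 than in replicate 3. Taken alone, the Lsm genes had their lowest median deviation in Bob1KO replicate 3, at -0.20, beside -0.12 in replicate 2. Of the 23 proliferation genes that were tested, 20 had negative values, with a median of -0.34, and none passed the adjusted P. At an unadjusted limma P below 0.05, 3 were lower and 0 higher, against 2.13% lower and 3.20% higher over all tested genes. Pcna, the sliding clamp of replication, was at 108, 98.4 and 113 in WT and 79.8, 80.4 and 86.5 in Bob1KO (log2 fold change -0.37, limma adjusted P = 0.803), and Ccnb2, a mitotic cyclin, gave -0.92 (limma adjusted P = 0.922). The part of proliferation, of the totals and of the RNA of other cell types in the values of the Sm, LSm and polymerase genes was not tested.

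Transcript length ran along with the sign of the difference. Of the 50 genes, 49 had a transcript length, and all 16 with transcripts under 1000 bases but 1 were negative, with a median of -0.21. Among all 773 tested genes under 1000 bases 536 were negative, with a median of -0.10. For transcripts of 1000 to 2000 bases the medians were -0.17 for 12 of the genes and -0.06 for all 2336, and for 2000 to 4000 bases 0.03 for 15 and 0.00 for all 4188. At 4000 bases or more they were 0.02 for 6 genes and 0.08 for all 2724, of which 1793 were positive. The median length was 982 bases for the Pol II genes with a length, 1161 for the Snrp genes and 3054 for the Pol III genes, so the class of a gene and its transcript length cannot be told apart in these medians.

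**Figure D5:**
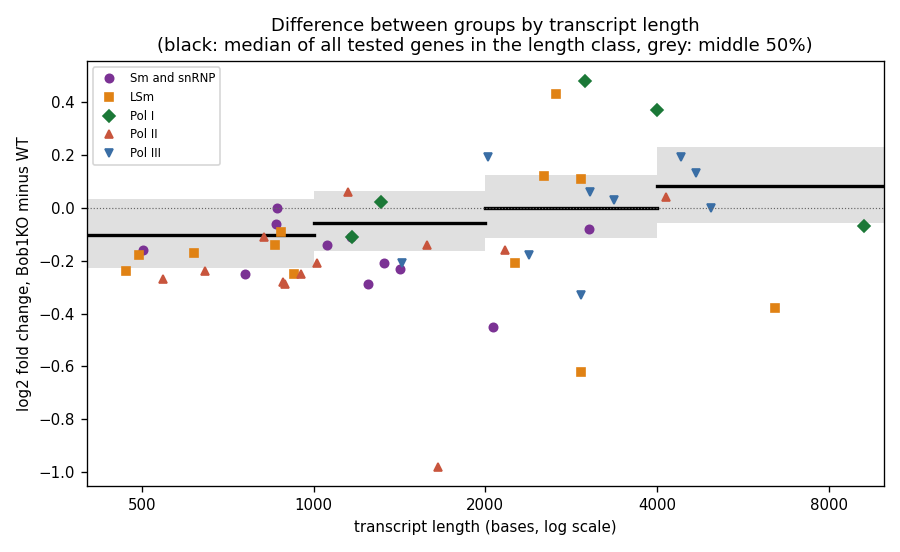
Log2 fold change of 49 genes, Bob1KO minus WT, against transcript length in bases on a log axis, coloured by class; the black line is the median of all tested genes in each of 4 length classes and the grey band their middle 50%. Most genes under 1000 bases lie below 0, and those of 4000 bases or more lie on both sides of it.

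Genes that work with these machines were read from lists. Of 15 tested genes for the assembly of small nuclear particles, the SMN complex among them, 12 were negative, with a median of -0.13. Prmt5, the arginine methyltransferase that modifies Sm proteins, was at 24.5, 30.0 and 28.9 FPKM in WT and 22.7, 23.9 and 22.9 in Bob1KO (log2 fold change -0.25, limma adjusted P = 0.942). Phax, the export adaptor of small nuclear RNA, gave 0.27. Of 32 other spliceosomal proteins 23 were negative, with a median of -0.04. Snrnp25, of the minor spliceosome, was at 39.1, 39.1 and 41.9 in WT and 38.6, 28.1 and 27.2 in Bob1KO (log2 fold change -0.36, limma adjusted P = 0.928), while Snrnp70, the U1 protein of 70 kDa, gave 0.25. Of 12 decapping and decay genes 5 were negative, with a median of 0.02. Cnot1, the scaffold of the deadenylase, was at 12.9, 14.0 and 12.1 in WT and 15.8, 16.3 and 24.2 in Bob1KO (log2 fold change 0.47, limma adjusted P = 0.922), and Ddx49, a helicase, gave -0.18.

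The factors of the polymerases gave medians of 0.03 for 10 Pol I genes (5 negative), -0.07 for 30 Pol II genes (19 negative) and 0.05 for 16 Pol III genes (7 negative). None of them passed the adjusted P. Mnat1, which assembles the kinase of transcription factor IIH, was at 26.7, 17.6 and 28.6 FPKM in WT and 12.7, 15.7 and 11.7 in Bob1KO, without overlap (log2 fold change -0.80, SE 0.207, limma adjusted P = 0.673). Gpn3, which serves the nuclear import of Pol II, gave -0.24. Bdp1, a subunit of transcription factor IIIB, gave 0.86 with a limma adjusted P of 0.945, and Gtf3c2, of transcription factor IIIC, gave 0.25. Among Pol I genes Ttf1, a termination factor, gave 0.31 and Znrd1, a small Pol I subunit under its older name, gave -0.14.

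Larger sets of mostly short transcripts are set beside these values. The 78 nuclear-encoded respiratory chain genes had a median of -0.19, with 70 negative and 6 lower and 1 higher at an unadjusted P below 0.05 (2.13% and 3.20% over all genes), and deviations by library of 0.00, 0.07 and 0.18 in WT and 0.10, -0.15 and -0.27 in Bob1KO. The 78 cytosolic ribosomal protein genes had a median of -0.05, with 53 negative, and deviations of -0.26, 0.25 and 0.04 in WT and 0.23, -0.01 and -0.26 in Bob1KO. The Snrp and Lsm medians of -0.16 and -0.18 lie nearer to the former, and neither difference was tested.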

How the data were processed

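RNA of sorted Tfh cells was measured in 6 libraries, 3 per group, with groups and replicate numbers from the sample titles. Per the submitters' processing notes, the authors used cutadapt 1.2.1, TopHat2 2.0.13 and Cufflinks 2.2.1 on GRCm38 (mm10), and deposited FPKM per row with an interval, from transcripts assembled in each library. The sources used here do not give the annotation version. The deposited table of both groups holds a group FPKM, used for names and printed as the authors' value, and the authors' fold changes, a test score, p-values and q-values, which were not used. The files hold no read counts, so the depth is unknown and no count test was run. The upper bound of the authors' interval lay 2.49% to 15.5% above the FPKM of the 46 genes within a 3-fold range (median over libraries). FPKM is scaled to each library's own total, so a value is a share of its RNA and not an amount.

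Rows named by the assembly hold 94.07% to 95.92% of the FPKM of a library. They were matched by position to RefSeq spans (at least 0.5 of the joint length shared, then at least 0.95 of a gene covered) and summed per gene. This assigned 91.74% to 92.35% of the FPKM, gave 25798 genes with a value in all 6 libraries, after 6 with a status other than OK were left out, and correlated with the authors' group FPKM over genes at a Spearman rho of 0.974 and 0.975. Overlapping genes cannot be told apart, and reads that pseudogenes of the Sm and LSm genes share with them could be split by the counting.

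With limma 3.58.1 (R 4.3.3), all genes at a mean of 1 FPKM or more were tested on log2(FPKM + 1), with a variance trend, no term but the group, and P adjusted after Benjamini-Hochberg, two-sided, at 0.05. Fold changes on this scale understate those of low genes. With 3 against 3, an exact permutation test cannot go below 0.1. Same-numbered libraries deviated together, with correlations of deviations from the group means of 0.117, 0.137 and 0.103. Other pairs were below 0, which centering on the group means largely fixes and which adds no support for pairs. On the same-numbered values alone the numbers were taken as possible pairs, since the labels do not say what they mark. The main fit and all printed intervals leave these pairs out. A fit with the replicate block was run. Tables and figures were made with Python 3.11.15, pandas 2.3.3 and matplotlib 3.10.9, and the fit was tested on simulated data.

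Genes named by rule are, per class, the 3 most abundant and those with the highest and lowest log2 fold change, any with an unadjusted P below 0.05 or listed at 0, the paralog pairs, the catalytic subunits and the 2 smallest P of each other list. Of 52 genes that the symbols gave, 1 is not reported here. Remaining genes were named after their values were seen. The genes and lists were chosen with earlier results of these data known. Alternatives were pseudocounts of 0.1 and 0.5, other filters, scalings, variance models and matching, the block, and left-out libraries.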

Additional observations from a re-analysis of the deposited data

How the results depend on the processing

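No gene of the set passed the adjusted P of 0.05 in limma under any alternative that was run, left-out libraries included. The number of all genes called was 2, against 1 with a pseudocount of 0.1, 1 at a mean FPKM of at least 5, 1 with the replicate block and 4 with both libraries numbered 2 left out. It ranged from 1 to 7 over left-out libraries, with 7 without WT replicate 1, 4 without WT replicate 3 and 1 without Bob1KO replicate 3. It was 3 with no filter. The pairing by the block changed no call of the set. The Snrp, Lsm and Polr medians stayed negative under all alternatives run, over left-out libraries at -0.30 to -0.12 for Snrp, -0.25 to -0.09 for Lsm and -0.15 to -0.081 for Polr genes, and Pou2af1 stayed called at -4.91 to -4.50.

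Log2 fold changes of single genes turned sign, none of them called. With both libraries numbered 2 left out, Lsm1 was at -0.28, Polr1c at -0.11 and Polr3g at -0.078. Median scaling gave -0.0087 for Polr3b and -0.0064 for Snrpf, and quantile normalization gave -0.057 for Polr3b and -0.020 for Polr3g. Over left-out libraries the ranges were -0.086 to 0.34 for Lsm14b, -0.15 to 0.025 for Polr1a, -0.12 to 0.16 for Polr1c, -0.39 to 0.20 for Polr2a, -0.0072 to 0.13 for Polr2e, -0.11 to 0.11 for Polr3b, -0.15 to 0.24 for Polr3e, -0.049 to 0.22 for Polr3g, -0.31 to 0.0058 for Snrpe, -0.35 to 0.24 for Snrpf and -0.29 to 0.022 for Snrpg. The cause was not tested. The number of libraries and the assembly made in each of them limit what can be said of single genes.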
